A study of Mus musculus with 36 samples.

Results

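Nxpe2, Nxpe3, Nxpe4 and Nxpe5 encode the mouse members measured here of the neurexophilin and PC-esterase domain family, and their transcript levels were followed in the distal colon of 36 mice, 1 Affymetrix array per animal. A gene was represented by the probe set annotated to it alone, and each of the 4 genes had exactly 1 such probe set, so the members are 4 of the 19938 genes that the array measured in this way. The family was chosen by measured values, the low Nxpe2 signal of the siRNA-dosed animals relative to Control, and the question was whether its paralogues share that loss. All values are log2 signals as deposited, so a difference of 1 is a 2-fold difference in signal, and levels are compared between animals for 1 gene and never between genes.

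The groups were scrambled (7 animals given a scrambled siRNA), siTNF (6 given an unmodified siRNA against TNFa), siTNF-OMe (6 given that siRNA with O-methyl nucleotides), siTNF-OMe-P (8 given it with O-methyl-propanediol nucleotides) and Control (9). Dosing was intrarectal. Every animal, Control included, is labelled with 5% dextran sulfate sodium (DSS), which injures the colon epithelium, while the design text describes siRNA-dosed animals only, so Control is used here as a label whose treatment the sources leave unsettled. Labelled myeloperoxidase activity, an enzyme activity of neutrophils, averaged 0.038 U per mg in Control. It averaged 0.58 in scrambled, 0.30 in siTNF, 0.61 in siTNF-OMe and 0.34 in siTNF-OMe-P. In comparisons with Control, siRNA dosing and this difference between the colons cannot be told apart. The sources used here do not give strain, sex or age. Nothing in the labels says whether animals shared a cage or a dosing day.

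NXPE proteins carry a neurexophilin-like part and a PC-esterase domain, a fold also found in enzymes that add or remove acetyl groups on sugars. In human colon, NXPE1 has been reported to act on the O-acetylation of sialic acid, the sugar that caps mucin chains and that bacteria and host receptors read. The separate roles of mouse Nxpe2, Nxpe3, Nxpe4 and Nxpe5 are left out here.

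In RefSeq on GRCm38.p6, Nxpe2 lies on chromosome 9 from 48318003 to 48353449 on the minus strand. The annotated span of Nxpe4, on the plus strand of the same chromosome from 48162004 to 48400025, contains that of Nxpe2, and the sources used here do not say whether the labelling and the probes keep the strands apart. Nxpe5 lies on chromosome 5 from 138207499 to 138251876 and Nxpe3 on chromosome 16 from 55839953 to 55897104. The sequences below are the 250 bases before the start that RefSeq's table takes for the gene low in all dosed groups, its neighbour with a smaller loss and the gene that was higher, and each start lies inside the gene's annotated span. Capitals mark TTTAT, or ATAAA where it is read on the other strand, the core of sites that the intestinal homeobox factors Cdx1 and Cdx2 are known to bind.
Nxpe2, chr9:48340899-48341148, minus strand: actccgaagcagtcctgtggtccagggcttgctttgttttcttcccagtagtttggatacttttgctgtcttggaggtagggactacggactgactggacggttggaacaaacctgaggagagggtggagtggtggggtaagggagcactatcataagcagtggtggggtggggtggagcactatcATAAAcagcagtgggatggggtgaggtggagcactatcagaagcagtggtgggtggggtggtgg
Nxpe4, chr9:48361791-48362040, plus strand: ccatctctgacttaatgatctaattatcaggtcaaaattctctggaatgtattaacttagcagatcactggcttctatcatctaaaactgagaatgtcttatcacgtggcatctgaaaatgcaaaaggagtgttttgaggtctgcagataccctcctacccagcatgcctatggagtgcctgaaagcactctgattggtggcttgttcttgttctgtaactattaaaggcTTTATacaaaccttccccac
Nxpe5, chr5:138225654-138225903, plus strand: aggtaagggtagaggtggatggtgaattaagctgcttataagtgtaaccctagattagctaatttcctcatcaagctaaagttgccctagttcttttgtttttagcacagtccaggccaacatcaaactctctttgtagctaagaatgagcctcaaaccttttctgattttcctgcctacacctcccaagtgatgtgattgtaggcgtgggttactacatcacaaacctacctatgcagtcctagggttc

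The motif occurred once before Nxpe2, as ATAAA inside a run of near-repeats, once before Nxpe4, shortly upstream of the start, and not before Nxpe5 or Nxpe3. Of 32851 promoters of the same length, 12241 (37.3%) hold TTTAT on either strand, so its presence in these windows is a description of the letters only. The motif was chosen after the sequences and the expression values had been seen. Base composition differed too: the Nxpe3 window had 69.2% G and C and 27 CpG dinucleotides, against 54.8% and 3 for Nxpe2, 40.8% and 1 for Nxpe4 and 42.8% and 1 for Nxpe5, where the median promoter had 52.4% G and C. The Cdx2 transcript itself averaged 8.64 in scrambled and 8.73 in Control, a difference of -0.11 ± 0.17 (SE, n = 7 and 9, limma adjusted p = 0.82), and Cdx1 differed by -0.20 ± 0.11 (limma adjusted p = 0.345). In siTNF-OMe, Cdx1 fell by 0.34 ± 0.12 (limma adjusted p = 0.0494).

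Nxpe2 was low in every dosed animal. Its log2 signal ran from 7.47 through a median of 7.73 to 7.97 in scrambled, from 7.46 through 7.56 to 7.76 in siTNF, from 7.41 through 7.62 to 7.73 in siTNF-OMe and from 7.56 through 7.70 to 7.84 in siTNF-OMe-P, against 9.52, 10.56 and 11.28 in Control. The lowest Control animal therefore stood well above the highest of the 27 dosed animals, and the 4 dosed groups lay on top of each other. Groups that do not overlap, with the dosed group lower, were found for 0.863% of all probe sets for scrambled, 0.957% with siTNF, 1.8% with siTNF-OMe and 1.01% with siTNF-OMe-P, which the choice of the gene makes a description only. In order of group means the levels were siTNF (7.58 ± 0.11, SD, n = 6), siTNF-OMe (7.59 ± 0.12, n = 6), siTNF-OMe-P (7.69 ± 0.10, n = 8), scrambled (7.71 ± 0.17, n = 7) and Control (10.41 ± 0.61, n = 9). Neighbours in that order differed by less than the larger of their SDs up to scrambled, and the step to Control was the only one beyond the spread.

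**Figure D1:**
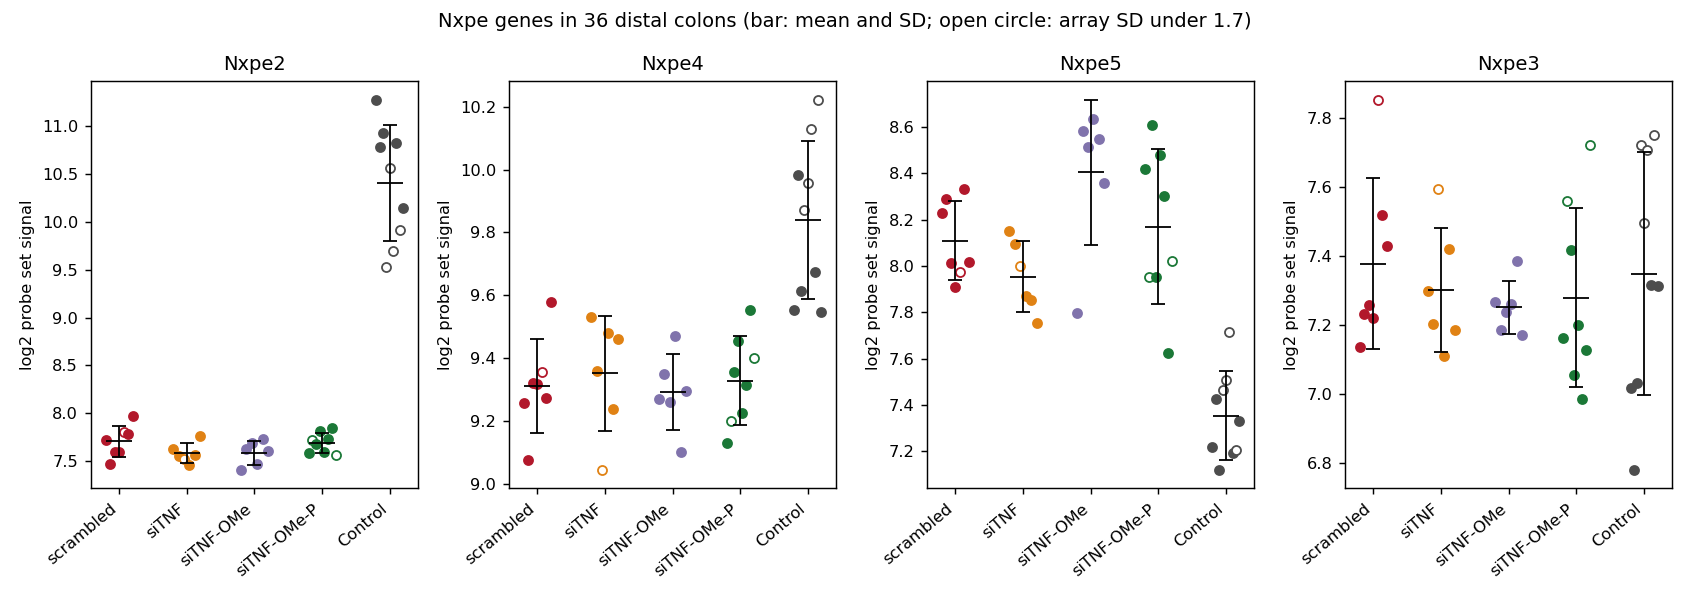
Log2 probe set signal of Nxpe2, Nxpe4, Nxpe5 and Nxpe3 in each of 36 animals, by group, with the mean and SD as a bar; open circles are arrays whose values have an SD under 1.7. The 27 dosed animals lie between 7.41 and 7.97 for Nxpe2 and the Control animals between 9.52 and 11.28, while Nxpe3 ranges overlap throughout.

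Relative to Control, Nxpe2 was 6.48-fold lower in scrambled (difference -2.69 ± 0.16, SE), 7.22-fold lower in siTNF (-2.85 ± 0.17), 7.01-fold lower in siTNF-OMe (-2.81 ± 0.17) and 6.52-fold lower in siTNF-OMe-P (-2.70 ± 0.15). These differences come from a linear model of all 36 arrays with terms for group, amplification batch and hybridization batch. Their SEs take a single spread for all groups, although Control animals varied more (SD 0.61) than dosed animals (0.10 to 0.17). The uncertainty against Control may therefore be understated. In each comparison only 1 of 28853 probe sets had a lower difference. Because this loss chose the family, these values are a description with no test, and the 4 comparisons share the same 9 Control arrays. In whole tissue, fewer cells of a type and less RNA per cell cannot be told apart. The sources used here give no background for the signals, so the fold differences are those of the signals.

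Nxpe4, whose span contains Nxpe2, was lower in dosed animals too, by a much smaller amount. Its signal ran from 9.08 through 9.32 to 9.58 in scrambled, from 9.05 through 9.41 to 9.53 in siTNF, from 9.10 through 9.28 to 9.47 in siTNF-OMe and from 9.13 through 9.33 to 9.55 in siTNF-OMe-P, against 9.55, 9.87 and 10.22 in Control. All siTNF and siTNF-OMe animals were below every Control animal, as were 6 of 7 scrambled and 7 of 8 siTNF-OMe-P animals. Over all probe sets, groups did not overlap with the dosed group lower for 0.957% in siTNF and 1.8% in siTNF-OMe. Relative to Control scrambled differed by -0.53 ± 0.092, siTNF by -0.48 ± 0.096, siTNF-OMe by -0.54 ± 0.096 and siTNF-OMe-P by -0.52 ± 0.089 (SE), that is 1.39-fold to 1.45-fold lower. Group means ran in the order siTNF-OMe (9.29 ± 0.12, SD), scrambled (9.31 ± 0.15), siTNF-OMe-P (9.33 ± 0.14), siTNF (9.35 ± 0.18) and Control (9.84 ± 0.25), and again only the step to Control exceeded the spread.

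Nxpe5 ran the other way and was higher in dosed animals. Its signal ran from 7.91 through 8.02 to 8.33 in scrambled, from 7.76 through 7.94 to 8.15 in siTNF, from 7.80 through 8.53 to 8.63 in siTNF-OMe and from 7.62 through 8.16 to 8.61 in siTNF-OMe-P, against 7.12, 7.33 and 7.72 in Control. All animals of scrambled, siTNF and siTNF-OMe were above every Control animal, and so were 7 of 8 siTNF-OMe-P animals. Over all probe sets, groups did not overlap with the dosed group higher for 1.82% in scrambled, 2.29% in siTNF, 4.56% in siTNF-OMe and 2.5% in siTNF-OMe-P. Nxpe5 was 1.7-fold higher in scrambled (0.76 ± 0.12, SE), 1.53-fold in siTNF (0.61 ± 0.12), 2.07-fold in siTNF-OMe (1.05 ± 0.12) and 1.74-fold in siTNF-OMe-P (0.80 ± 0.11). By mean the order was Control (7.35 ± 0.19, SD), siTNF (7.95 ± 0.15), scrambled (8.11 ± 0.17), siTNF-OMe-P (8.17 ± 0.33) and siTNF-OMe (8.40 ± 0.31), in which each dosed group was closer to the next than the larger of their SDs.

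Nxpe3 did not separate dosed from Control animals. Its signal ran from 7.14 through 7.26 to 7.85 in scrambled, from 7.11 through 7.25 to 7.60 in siTNF, from 7.17 through 7.25 to 7.39 in siTNF-OMe and from 6.99 through 7.18 to 7.72 in siTNF-OMe-P, against 6.78, 7.32 and 7.75 in Control. All siTNF, siTNF-OMe and siTNF-OMe-P animals fell inside the Control range, and 1 scrambled animal lay above it. Relative to Control scrambled differed by 0.0076 ± 0.12, siTNF by -0.035 ± 0.13, siTNF-OMe by -0.11 ± 0.13 and siTNF-OMe-P by -0.053 ± 0.12, each smaller than its SE, and the 95% interval for scrambled ran from -0.24 to 0.25.

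Beside the loss of Nxpe2, then, Nxpe4 showed a smaller one, Nxpe5 a difference of the opposite sign and Nxpe3 a difference near 0. The Nxpe3 probe set was among the lowest 40% by mean signal, and it followed the scale of the arrays, as described further on. Whether its signal could show a loss was not tested. Of the 4 members, 3 (Nxpe2, Nxpe4 and Nxpe5) passed the fit's adjusted threshold of 0.05 against Control in each comparison, where 11.7% of all probe sets did in the scrambled comparison, 13.8% in that of siTNF, 14.8% in that of siTNF-OMe and 15.9% in that of siTNF-OMe-P, and nothing is read from that count. The median difference of all probe sets was -0.027, -0.044, -0.050 and -0.026.

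**Figure D2:**
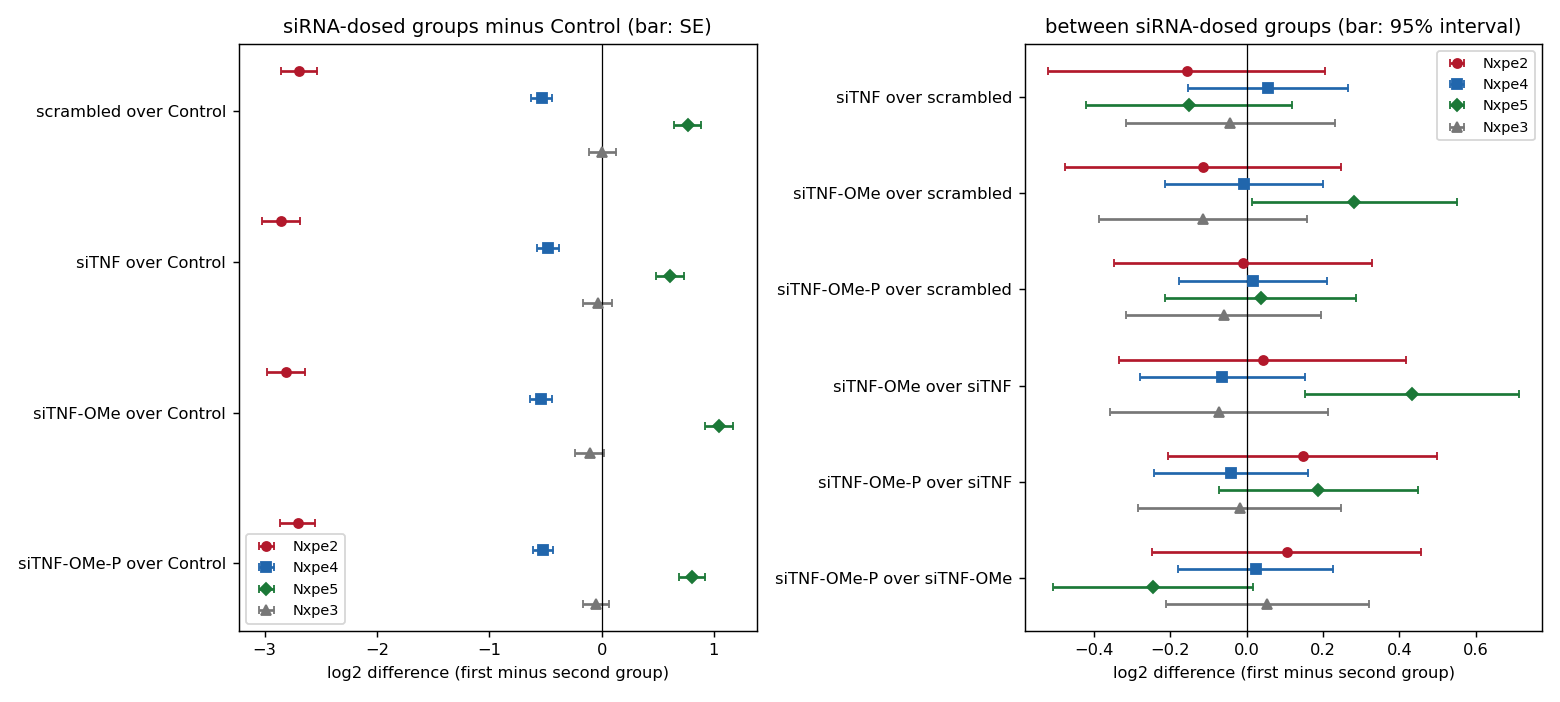
Left, log2 differences of the 4 dosed groups from Control with SE; right, log2 differences between dosed groups with 95% intervals, for Nxpe2, Nxpe4, Nxpe5 and Nxpe3. Nxpe2 lies between -2.85 and -2.69 on the left, Nxpe5 between 0.61 and 1.05, and on the right 2 intervals, both of Nxpe5, leave out 0.

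Comparisons between dosed groups played no part in choosing the family and could be tested. Over the 6 comparisons limma called 0 of 28853 probe sets at an adjusted p under 0.05 (0% each), and 0 members. That count was not 0 under every alternative: it was 198 for siTNF-OMe-P over scrambled with array weights, up to 8 with array SD as a covariate, up to 63 within amplification batch 1 and 17 within batch 2, 4 with quantile normalization and 1 with median centring, with 0 members among them. Unadjusted p values under 0.05 were found for 311 probe sets (1.08%) in siTNF over scrambled, 455 (1.58%) in siTNF-OMe over scrambled, 836 (2.9%) in siTNF-OMe-P over scrambled, 494 (1.71%) in siTNF-OMe over siTNF, 1002 (3.47%) in siTNF-OMe-P over siTNF and 74 (0.256%) in siTNF-OMe-P over siTNF-OMe. Nxpe5 gave the only 2 such values among the members. It was higher in siTNF-OMe than in siTNF by 0.43 ± 0.14 (SE, n = 6 each, 95% interval 0.15 to 0.71, limma unadjusted p = 0.00348, adjusted p = 1), with 5 of 6 siTNF-OMe animals above every siTNF animal. Over scrambled the siTNF-OMe difference was 0.28 ± 0.13 (n = 6 and 7, interval 0.014 to 0.55, limma unadjusted p = 0.04, adjusted p = 1), again with 5 of 6 animals above every scrambled animal.

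The sixth siTNF-OMe animal, replicate 1, had an Nxpe5 signal of 7.80, against 8.36 to 8.63 in the other 5, and was the only siTNF-OMe array of amplification batch 1. It also had the lowest mean of its group over the leukocyte marker genes described further on (9.82, against 10.02 to 10.36). The same held for the muscle and stroma genes (11.93) and the squamous epithelium genes (7.48). Its labelled myeloperoxidase activity, an enzyme activity of neutrophils, was by contrast the highest of the group. As groups, siTNF-OMe animals had a median leukocyte mean of 10.10, against 9.68 in siTNF and 9.65 in scrambled, and a median squamous mean of 9.32, against 7.48 and 7.46. The part of these markers in the Nxpe5 difference between dosed groups was not tested. Without that animal the difference over siTNF was 0.59 (limma adjusted p = 0.733) and that over scrambled 0.41 (limma adjusted p = 1). Within amplification batches 2 and 3 siTNF-OMe exceeded siTNF by 0.65 in both, within amplification batch 1 it was -0.38 from that single array, and within the hybridization batches it was 0.31 and 0.57. siTNF-OMe-P over siTNF-OMe was -0.25 ± 0.13 (n = 8 and 6, interval -0.51 to 0.016, limma adjusted p = 1).

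For Nxpe2 the intervals between dosed groups bound what the fit could miss. That fit takes a single spread for all groups, Control included. The SD of Nxpe2 was 0.61 in Control and 0.10 to 0.17 in the dosed groups. These intervals may therefore be wider than the spread of the dosed animals alone would give. siTNF over scrambled was -0.16 ± 0.18 (interval -0.52 to 0.21), siTNF-OMe over scrambled -0.11 ± 0.18 (-0.48 to 0.25) and siTNF-OMe-P over scrambled -0.0098 ± 0.17 (-0.35 to 0.33), with limma adjusted p = 1 for each. siTNF-OMe over siTNF was 0.042 ± 0.18 (-0.33 to 0.42, limma adjusted p = 1), siTNF-OMe-P over siTNF 0.15 ± 0.17 (-0.21 to 0.50, limma adjusted p = 0.974) and siTNF-OMe-P over siTNF-OMe 0.10 ± 0.17 (-0.25 to 0.46, limma adjusted p = 1). The bounds of the 6 intervals thus run from -0.52 to 0.50, where scrambled differed from Control by -2.69.

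Some arrays had a compressed scale. The SD of all values within an array ran from 1.55 to 1.89 and was under 1.7 in 8 arrays: Control 4 of 9, scrambled 1 of 7, siTNF 1 of 6, siTNF-OMe 0 of 6 and siTNF-OMe-P 2 of 8. The limit was set after seeing the data. In Control the 4 narrow arrays averaged 9.93 for Nxpe2, against 10.79 in the other 5, and 10.05 against 9.68 for Nxpe4, 7.47 against 7.26 for Nxpe5 and 7.67 against 7.09 for Nxpe3. Within Control, Nxpe2 followed array SD upward (r = 0.891, permutation adjusted p = 0.00429 over 4 relations; rho = 0.917, adjusted p = 0.00262; r = 0.830 without the 2 arrays farthest from the median, n = 9) and Nxpe3 followed it downward (r = -0.933, permutation adjusted p = 0.00179; rho = -0.950, adjusted p = 0.00141; -0.924 without the 2 farthest).

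Among the 27 dosed animals the link of Nxpe3 to array SD was present too (r = -0.814, permutation adjusted p = 4e-05, from the smallest p of 1e-05 that the permutations can give; rho = -0.647, adjusted p = 0.0016; -0.800 without the 2 farthest; within hybridization batches -0.779 and -0.858; within amplification batches -0.950, -0.718 and -0.794). For Nxpe2 it was -0.352 there (permutation adjusted p = 0.144). Without the 4 narrow arrays among them, r over the other 23 dosed animals was -0.553 for Nxpe3 and -0.603 for Nxpe2. Without the 8 narrow arrays the Nxpe2 differences from Control were -3.07 in scrambled, -3.19 in siTNF, -3.18 in siTNF-OMe and -3.05 in siTNF-OMe-P, and those of Nxpe4 were nearer 0, at -0.39, -0.28, -0.38 and -0.33 in the same order. Nxpe5 was then higher by 0.85, 0.68, 1.13 and 0.94, and Nxpe3 by 0.22, 0.17, 0.16 and 0.090. The share of probe sets called rose with that choice to 50%, 20.9%, 54% and 48% against Control.

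**Figure D3:**
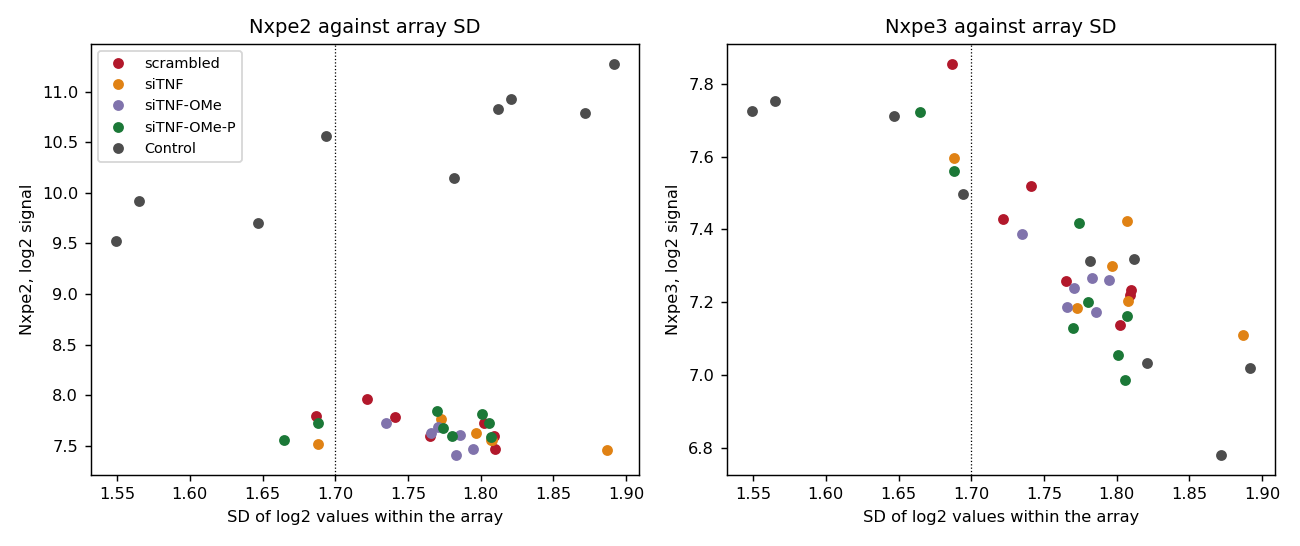
Log2 signal of Nxpe2 and Nxpe3 against the SD of all log2 values within the array, 1 point per animal, coloured by group, with a dotted line at 1.7. Nxpe3 runs downward with array SD in dosed and Control animals (r = -0.814 and -0.933), and Nxpe2 runs upward in Control (r = 0.891), with r = -0.352 in dosed animals.

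Markers of the tissue were read beside the members. In scrambled over Control 7.27% of all probe sets rose and 4.45% fell, with a median difference of -0.027. Of 14 pan-epithelial genes 2 rose and 0 fell (median 0.11). The list mean ran from 11.50 to 12.13 in dosed animals, against 11.44 to 12.07 in Control. Of 15 measured absorptive colonocyte genes 4 rose and 2 fell (median 0.015). The adhesion molecules Ceacam1 (0.28 ± 0.050, SE, limma adjusted p = 1.57e-04) and Ceacam20 (0.51 ± 0.098, limma adjusted p = 3.56e-04), the bile acid transporter subunit Slc51b (1.36 ± 0.27, limma adjusted p = 5.9e-04) and the keratin Krt20 (0.40 ± 0.10, limma adjusted p = 0.00706) were the 4 that rose. The water channel Aqp8 fell by 1.13 ± 0.22 (limma adjusted p = 4.43e-04) and the guanylate cyclase ligand Guca2b by 0.84 ± 0.17 (limma adjusted p = 6.05e-04). Of 9 goblet cell genes 5 rose and 1, Reg4, fell (median 0.16). Without the narrow arrays, where 50% of all probe sets were called in scrambled over Control, the counts of risen and fallen genes were 1 and 1 for pan-epithelial, 5 and 4 for absorptive and 4 and 2 for goblet genes, and 6 pan-epithelial genes fell in siTNF-OMe and 4 in siTNF-OMe-P, where 54% and 48% of all probe sets were called.

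Other compartments moved further. Of 11 crypt base and proliferation genes 10 fell in scrambled over Control (median -0.58), and the list mean ran from 8.12 to 8.52 in dosed animals, against 8.45 to 9.55 in Control. Of 11 measured leukocyte genes 9 rose and 1, the B cell marker Ms4a1, fell (median 0.96), and list means of 9.32 to 10.49 in dosed animals did not overlap the 8.66 to 9.05 of Control. Of 10 muscle and stroma genes 8 rose (median 0.45), with list means of 11.76 to 12.15 in dosed animals, against 10.92 to 11.76 in Control. Of 9 squamous epithelium genes, typical of the anal canal and not of the colon, 0 rose in scrambled and in siTNF, 7 in siTNF-OMe and 5 in siTNF-OMe-P, where 9.01% and 9.35% of all probe sets rose in the last 2. Without the narrow arrays, with that share of 50%, 11 crypt genes fell, 10 leukocyte genes and 6 muscle and stroma genes rose in scrambled. The part of these lists in the differences of the Nxpe genes from Control was not tested.

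Within the dosed animals alone, 24 relations of the 4 members to 6 marker list means were computed, and 8 had a permutation adjusted p under 0.05. These relations were added after the group values had been seen. Nxpe5 followed the leukocyte list (r = 0.646, permutation adjusted p = 0.00336; rho = 0.651, adjusted p = 0.003; n = 27) and the muscle and stroma list (r = 0.683, permutation adjusted p = 0.00312; rho = 0.671, adjusted p = 0.003). Animals with more leukocyte or stromal transcript had more Nxpe5. Without the 2 animals farthest from the median r was 0.703 and 0.696, and with each group centred on its mean it was 0.587 and 0.633.

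The leukocyte relation of Nxpe5 was 0.648 and 0.652 within the hybridization batches and 0.380, 0.561 and 0.677 within the amplification batches. For muscle and stroma the hybridization batches gave 0.601 and 0.779 and the amplification batches -0.128, 0.813 and 0.679, so that relation did not hold in amplification batch 1, which has 6 dosed animals. Nxpe5 ran against the pan-epithelial list (r = -0.504, permutation adjusted p = 0.0282; rho = -0.536, adjusted p = 0.0251; -0.564 without the 2 farthest) and the absorptive list (r = -0.490, permutation adjusted p = 0.0351; rho = -0.458, adjusted p = 0.0606; -0.382 without the 2 farthest). Within hybridization batches these were -0.428 and -0.594 for pan-epithelial and -0.718 and -0.335 for absorptive genes, and within amplification batches -0.0576, -0.535 and -0.395, and -0.258, -0.442 and -0.568.

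Nxpe4 had relations of the opposite sign. It followed the absorptive list (r = 0.549, permutation adjusted p = 0.0145; rho = 0.523, adjusted p = 0.0251; 0.474 without the 2 farthest) and ran against the leukocyte list (r = -0.566, permutation adjusted p = 0.0119; rho = -0.518, adjusted p = 0.0251; -0.424 without the 2 farthest) and the muscle and stroma list (r = -0.602, permutation adjusted p = 0.00648; rho = -0.543, adjusted p = 0.0251; -0.567 without the 2 farthest). Within hybridization batches the absorptive relation was 0.575 and 0.477, the leukocyte one -0.688 and -0.314 and the muscle and stroma one -0.530 and -0.679. Within amplification batches they were 0.634, 0.636 and 0.406 for absorptive, -0.667, -0.549 and -0.670 for leukocyte and -0.468, -0.428 and -0.955 for muscle and stroma genes. Its relation to goblet genes passed by r and not by rho (r = 0.462, permutation adjusted p = 0.0449; rho = 0.363, adjusted p = 0.11; 0.297 without the 2 farthest; 0.441 and 0.444 within hybridization batches; 0.836, 0.546 and 0.340 within amplification batches).

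**Figure D4:**
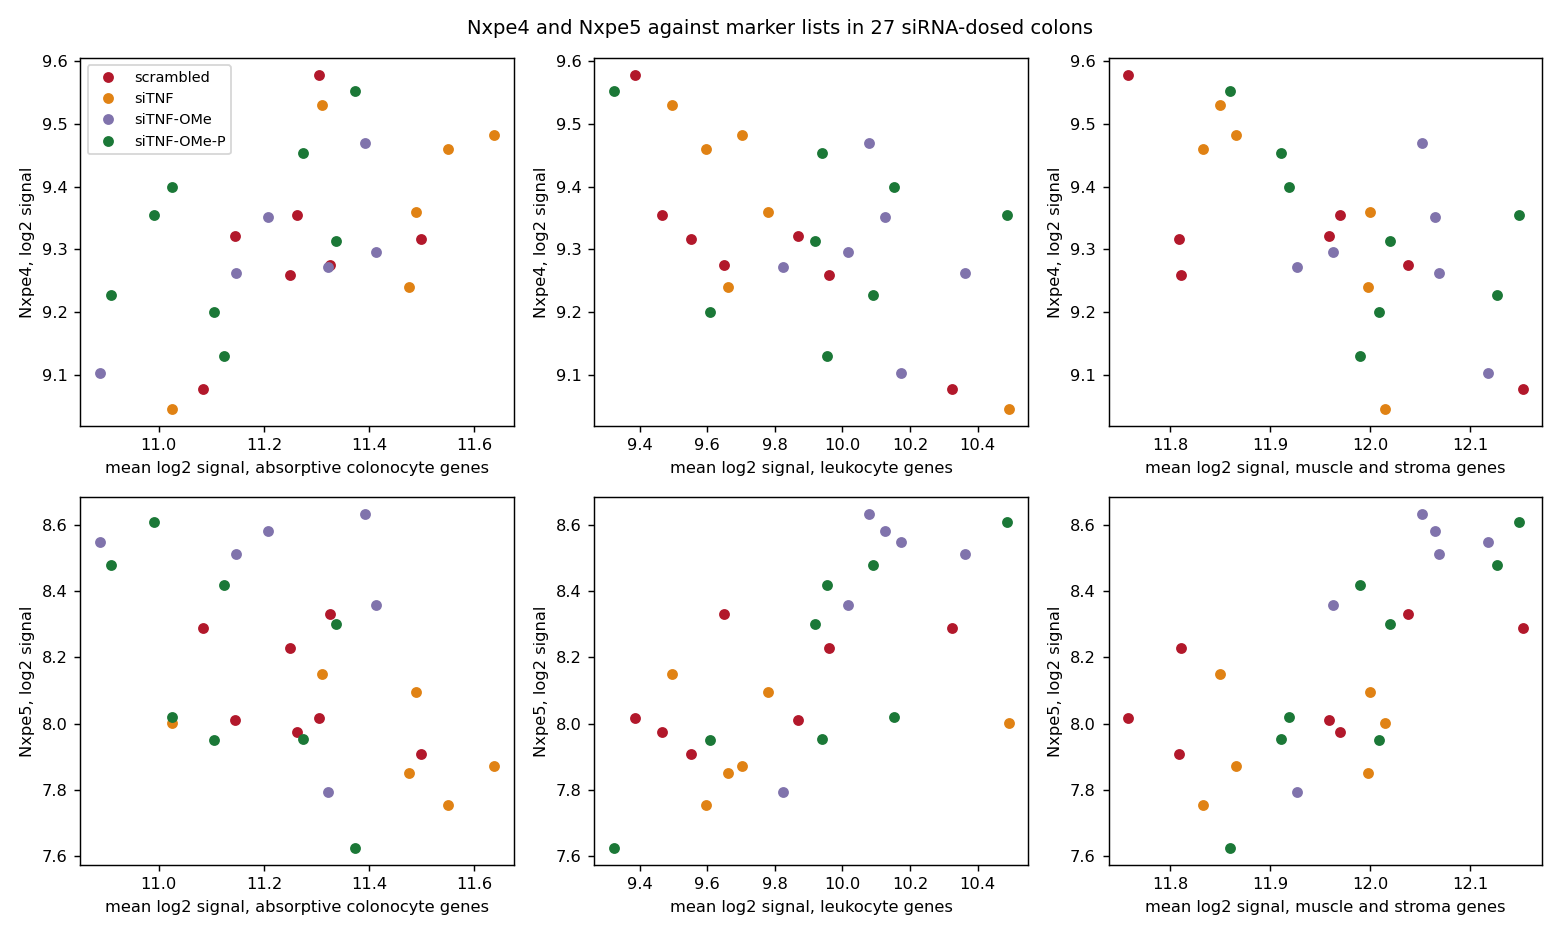
Log2 signal of Nxpe4 (top) and Nxpe5 (bottom) against the mean log2 signal of the absorptive colonocyte, leukocyte and muscle and stroma lists in 27 dosed animals, coloured by group. Nxpe4 rises with absorptive genes (r = 0.549) and declines with leukocyte genes (r = -0.566), and Nxpe5 does the reverse (r = -0.490 and 0.646).

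Nxpe2 and Nxpe3 had no relation to a marker list past the adjusted threshold. The closest for Nxpe2 was leukocyte genes (r = -0.421, permutation adjusted p = 0.0696; rho = -0.378, adjusted p = 0.11; -0.314 without the 2 farthest), over a signal range of only 7.41 to 7.97. The members were not tied to each other within dosed animals: of 6 pairs the highest was Nxpe2 with Nxpe4 (r = 0.352, permutation adjusted p = 0.332; rho = 0.253, adjusted p = 0.68) and none passed.

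The colon measures in the labels were set beside the members in the same way, 12 relations in dosed and 12 in Control animals. In dosed animals none passed, and 2 of 12 had an unadjusted permutation p under 0.05. Nxpe4 and Nxpe2 had the lowest p, both against myeloperoxidase (MPO) activity, an enzyme activity of neutrophils. For Nxpe4 r was -0.461 (permutation adjusted p = 0.175) and rho -0.357 (permutation adjusted p = 0.404), with r = -0.357 without the 2 farthest. Within hybridization batches r was -0.529 and -0.0783, and within amplification batches -0.561, -0.571 and -0.138. With each group centred on its mean it was -0.447. For Nxpe2 r was -0.408 (permutation adjusted p = 0.211) and rho -0.386 (permutation adjusted p = 0.404), with r = -0.171 without the 2 farthest. Within hybridization batches r was -0.661 and -0.0759, and within amplification batches -0.351, -0.336 and -0.375. With each group centred on its mean it was -0.512.

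Among the 9 Control animals, the colon weight to length ratio was related to 3 members at an unadjusted p under 0.05. Nxpe5 was higher where the ratio was higher (r = 0.860, permutation adjusted p = 0.0387; rho = 0.703, adjusted p = 0.162), but r was 0.551 without the 2 animals farthest from the median, so the relation rests on those animals. It was 0.842 with array SD held and 0.233 after quantile normalization. Nxpe2 was lower where the ratio was higher (r = -0.731, permutation adjusted p = 0.0535; rho = -0.887, adjusted p = 0.0302; -0.766 without the 2 farthest; -0.583 with array SD held). Nxpe4 was higher (r = 0.744, permutation adjusted p = 0.0534; rho = 0.787, adjusted p = 0.0937; 0.804 without the 2 farthest; 0.590 with array SD held). No value is given within batches, each of which holds fewer than 6 Control animals.

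The genes whose pattern over all 36 arrays was most like that of a member were found by Pearson r among 19938 genes. For Nxpe2 these were Cldn2, a pore-forming claudin (r = 0.983), Nox1, an epithelial NADPH oxidase (0.973), Reg4, a lectin of secretory epithelial cells (0.973), Rnf32 (0.971) and Klf12, a zinc finger factor (0.966). They were lower in scrambled than in Control by differences of -2.19, -1.84, -3.00, -1.18 and -0.73. Dosed and Control animals form separate clusters for Nxpe2, so these values mostly measure that shared step. Within the 27 dosed animals r was 0.607, 0.194, 0.209, 0.380 and 0.521 in the same order. Ranked within dosed animals, the closest genes were Gatb (0.776), Ms4a19 (0.724), Olfr1198 (0.718), Olfr1048 (0.709) and Olfr911-ps1 (0.697). All but Gatb averaged 5.30 to 5.88 in scrambled, with r of -0.685 to -0.834 to array SD over the 36 arrays. Whether the Nxpe2 signal of dosed animals stood above background was not tested. After removal of group and batch from the 36 arrays, r with Cldn2, Nox1, Reg4, Rnf32 and Klf12 was 0.751, 0.772, 0.506, 0.801 and 0.767. Those values lean on the Control animals, where the SD of Nxpe2 was 0.61, against 0.13 over the dosed animals. Within Control Nxpe2 followed array SD (r = 0.891), and the part of array SD in those values was not tested.

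For Nxpe4 the closest genes were Abo, a glycosyltransferase of blood group antigens (r = 0.847, and 0.719 in dosed animals), Ccdc163 (0.816 and 0.593) and Strbp (0.809 and 0.431). For Nxpe5 they were Igf1, a growth factor (0.925, and 0.811 in dosed animals), Rab3il1 (0.911 and 0.789) and Fabp5, a fatty acid binding protein (0.908 and 0.796). Igf1 averaged 9.22 in scrambled and 8.59 in Control. For Nxpe3 they were Tcf24 (0.939), Mir30c-1 (0.933) and Mir326 (0.924), whose own r with array SD was -0.854, -0.934 and -0.896. All points share the arrays and their scale, and no p is given for a likeness.

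The surroundings of Nxpe2 on chromosome 9 were read within 500 kb of the gene, a window chosen after the values had been seen. RefSeq lists 20 genes there, 9 of them protein coding, and 10 were measured. Besides Nxpe2 and Nxpe4, 8 others were measured, of which 3 rose and 0 fell in scrambled over Control, where 7.27% of all probe sets rose and 4.45% fell. The 3 were Rexo2, an oligoribonuclease (0.58 ± 0.11, SE, limma adjusted p = 2.43e-04), Nnmt, nicotinamide N-methyltransferase (0.40 ± 0.11, limma adjusted p = 0.0109), and Cadm1, a cell adhesion molecule (0.33 ± 0.062, limma adjusted p = 2.71e-04). Zbtb16, Rbm7, Gm5617, Gm8884 and Gm10677 did not pass, with differences from -0.17 to 0.23.

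**Figure D5:**
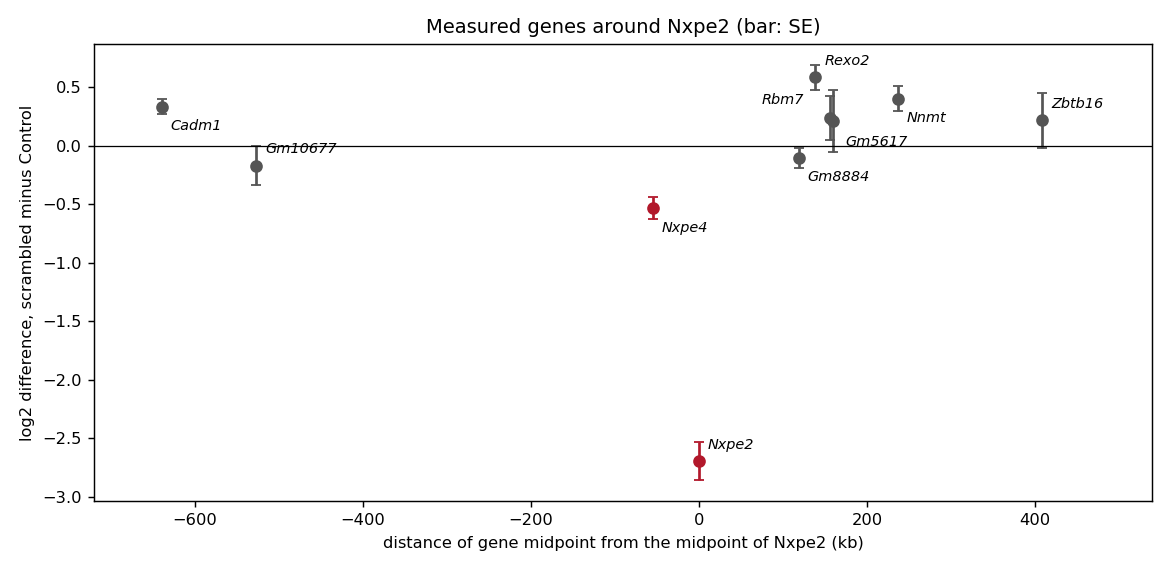
Log2 difference of scrambled minus Control, with SE, for the 10 measured genes within 500 kb of Nxpe2, by the distance between gene midpoints in kb. Nxpe2 at -2.69 and Nxpe4 at -0.53 lie below 0, and Rexo2, Nnmt and Cadm1 lie above it at 0.58, 0.40 and 0.33.

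A list of genes of sialic acid synthesis, transfer, O-acetylation and breakdown and of mucin O-glycan assembly moved in both directions. Of its 30 members, all measured, 5 rose and 5 fell in scrambled over Control, 6 and 6 in siTNF, 5 and 8 in siTNF-OMe and 5 and 9 in siTNF-OMe-P, with list medians of 0.10, 0.071, 0.0096 and -0.046. Over all probe sets 7.27% rose and 4.45% fell in scrambled, 9.09% and 4.71% in siTNF, 9.01% and 5.81% in siTNF-OMe and 9.35% and 6.58% in siTNF-OMe-P. Without the narrow arrays the counts were 7 and 13, 5 and 8, 5 and 17, and 5 and 16, where 50%, 20.9%, 54% and 48% of all probe sets were called in either direction. St6galnac2, which adds sialic acid to mucin-type O-glycans, averaged 9.04 in scrambled and 10.13 in Control, and fell by 1.06 ± 0.14 (SE, n = 7 and 9, limma adjusted p = 1.13e-06).

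Casd1, the Golgi enzyme that O-acetylates sialic acid, averaged 10.09 in scrambled and 10.83 in Control and fell by 0.71 ± 0.18 (limma adjusted p = 0.00706). It also fell by 0.66 ± 0.19 in siTNF, 0.93 ± 0.19 in siTNF-OMe and 1.00 ± 0.18 in siTNF-OMe-P. Siae, which removes O-acetyl groups from sialic acid, differed by -0.15 ± 0.13 in scrambled and did not pass in any group (limma adjusted p = 0.642 in scrambled, 0.184 in siTNF, 0.461 in siTNF-OMe and 0.181 in siTNF-OMe-P). Npl, which breaks free sialic acid down, rose in scrambled by 0.73 ± 0.12 (limma adjusted p = 7.53e-05), and the sialyltransferases St3gal2 and St3gal1 rose by 0.51 ± 0.095 (limma adjusted p = 2.89e-04) and 0.84 ± 0.19 (limma adjusted p = 0.00182). The others that rose, C1galt1 (0.68) and Galnt3 (0.43), act in O-glycan assembly and add no sialic acid. The others that fell were the sialic acid phosphatase Nanp (-0.55) and the sialyltransferases St6galnac4 (-0.47) and St3gal6 (-0.47).

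The neurexophilin genes, whose products share a domain with the family, showed no call in any comparison with Control. Nxph1, Nxph2, Nxph3 and Nxph4 differed by -0.065, -0.022, 0.13 and 0.012 in scrambled over Control. Without the narrow arrays 2 of the 4 rose in scrambled, 1 in siTNF, 2 in siTNF-OMe and 1 in siTNF-OMe-P, where 50%, 20.9%, 54% and 48% of all probe sets were called in either direction.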

How the data were processed

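RNA of 36 distal colons was measured on Affymetrix arrays. Per the labels' protocols, total RNA was extracted with an RNeasy kit and amplified as whole transcriptome and the cDNA was biotinylated. The authors deposited log2 signals per probe set, made with Partek and RMA per the submitters' processing notes, versions not given. The quantile step usual in RMA brings arrays to like distributions, while the deposited arrays differ in SD (1.55 to 1.89), so which steps were run is not settled. The sources used here do not say whether batch effects were removed. No probe set was left out of the fit: the platform annotation gives 1 gene to 21789 of the 28853, several genes to 1621 and no gene to 5443. Gene positions and promoters come from RefSeq (GRCm38.p6).

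Groups came from the sample titles, and 3 amplification and 2 hybridization batches from the labelled dates. Differences were fitted with limma 3.58.1 in R 4.3.3 on group, amplification batch and hybridization batch over all 36 arrays (28 residual degrees of freedom), with eBayes and a mean-variance trend, two-sided, adjusted by Benjamini-Hochberg over all probe sets at a threshold of 0.05. The number of arrays limits the precision: over all probe sets the SE for scrambled against Control had a median of 0.108. The lowest correlation of 2 arrays was 0.852. Members got no p against Control, since that contrast chose them. Correlations used 100000 two-sided permutations, or exact permutations for 9 animals, adjusted within 6 families (62 relations). The fit was tested on simulated data. The simulated noise was independent, with a single spread per probe set for all groups and no batch or scale effect. It therefore does not cover the wider spread of Nxpe2 in Control or the differing array SDs. Permutations ran in SciPy 1.17.1 and NumPy 2.4.6 under Python 3.11.15, tables in pandas 2.3.3 and plots in matplotlib 3.10.9.

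The members and gene lists were chosen with earlier results of these data known. Named genes were the members, the 3 or 5 genes most like each, list members called with the smallest p and defining markers. Added after their values were seen were the genes around Nxpe2 and those most like it within dosed animals. The other called genes of the absorptive and sialic acid lists were added in the same way. Alternatives were other or no batch terms, fits within each batch or on just the 2 groups compared, a replicate block, dim probe sets left out, quantile normalization, median centring, other moderation, array weights, array SD as a covariate, narrow arrays left out, each array left out, and, chosen after seeing the data, group medians, list counts without the narrow arrays, and the marker list and member to member correlations with their checks.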

Additional observations from a re-analysis of the deposited data

Results flagged for a closer look

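Of 20 combinations of member and group, 1 had an animal far from the rest. Nxpe5 in siTNF-OMe replicate 1 had a signal of 7.80, below the other 5 animals of its group at 8.36 to 8.63, with a gap larger than Dixon's limit for a group of 6. Chance flags about 1 in 20 such groups. It is the only siTNF-OMe array in amplification batch 1, and without it the Nxpe5 difference from Control was 1.19, against 1.05 with it.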

How the results depend on the processing

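Against Control, 17 of 300 values of the members under other settings, arrays left out singly aside, moved by more than the spread between animals. None turned the sign of Nxpe2, Nxpe4 or Nxpe5. Passing the adjusted threshold against Control was lost 21 times, 12 for Nxpe4 and 9 for Nxpe5, and 20 of these were within a single batch. The main fit called 3384 to 4596 of 28853 probe sets against Control. Hybridization batches 1 and 2 alone called 788 to 1411 and 1048 to 2215. Amplification batches 2 and 3 alone called 2187 to 3769 and 54 to 202. Amplification batch 1 alone held 1 array in some groups, and no count is given for it. Lost calls of members are therefore not read as a result about them. Nxpe3 passed in 2 of 72 settings. Without the narrow arrays all 4 members passed in scrambled, where 50% of all probe sets did. Without the 8 narrow arrays Nxpe2 was at -3.07 (scrambled), -3.19 (siTNF), -3.18 (siTNF-OMe) and -3.05 (siTNF-OMe-P), Nxpe4 at -0.28 (siTNF) and -0.33 (siTNF-OMe-P) and Nxpe3 at 0.16 (siTNF-OMe). In amplification batch 1 alone, with 1 or 2 arrays a group, Nxpe2 was at -3.37, -3.44, -3.69 and -3.37 in that order of groups, Nxpe3 at 0.35 (siTNF), 0.38 (siTNF-OMe) and 0.46 (siTNF-OMe-P), while Nxpe5 was at 0.42 (siTNF-OMe). Batch 2 alone gave Nxpe3 -0.31 and batch 3 alone Nxpe4 -0.32 (both siTNF-OMe-P). The cause was not tested.

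Differences from Control chose the family, so their sign is no sign of stability. Leaving out 1 array kept Nxpe2 in scrambled between -2.81 and -2.60. Nxpe3 changed sign in 19 of 72 settings. Between dosed groups 0 members were called under any alternative, and uncalled differences changed sign in 80 of 598 settings and 32 of 864 fits with 1 array left out. Leaving out 11541 dim probe sets (the lowest 40% by mean) removed Nxpe3. No member had another probe set to use. Without the narrow arrays 15 list counts changed by over 1.5 times, the sialic acid ones as given above.

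Replicate numbers were not taken as pairs in the main fit. Over 64 same-numbered pairs r ran from -0.697 to 0.868 (median 0.124, 32 over 0.1), against a median of -0.0056 for the other pairs. Of 36 arrays, 5 correlated best with their own number. Replicate numbers rise with the amplification batches within each group, so a pair and a shared batch cannot be told apart. With the replicate block in place of the batch terms, 3251 probe sets were called for scrambled over Control, against 3384, and Nxpe2 was at -2.78, Nxpe4 at -0.53 and Nxpe5 at 0.73.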
